A study of Mus musculus with 9 samples.

Results

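Interferon-stimulated genes are the genes that cells switch on when interferons reach them, and 62 of the 24059 gene symbols in the count table were taken as members of the group. They were chosen by name: the Ifit, Ifitm, Irf, Oas, Gbp and Isg genes that carry a number or letter after the family name, 2 Stat genes, Mx1 and Mx2, and 10 further genes (Rsad2, Usp18, Bst2, Ifih1, Ddx58, Ifi35, Ifi44, Xaf1, Rtp4 and Cmpk2). The naming rule itself uses no measured value. The names gave 11 Gbp, 3 Ifit, 7 Ifitm, 9 Irf, 2 Mx, 12 Oas and 2 Stat genes, 2 sensors of foreign RNA, 10 other effectors, and 4 genes that share only a name prefix with the group (Irf2bp1, Irf2bp2, Irf2bpl and Isg20l2). Of the 62, 50 had enough counts to be tested and 12 did not.

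RNA was sequenced from the caput, corpus and cauda epididymis, the first, middle and last segments of the duct in which sperm mature and are stored. The C57BL/6J mice behind all 9 libraries were wild type and 9 months old, with 3 libraries per segment, so segment is the only difference that the labels give between groups. Whole segments were taken, and each library therefore mixes epithelium, muscle, connective tissue, blood cells and sperm. The labels give neither the number of mice nor whether a library came from 1 animal, so the p-values measure only the spread between these libraries.

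As background, cells detect foreign nucleic acid with sensors such as the RNA helicases encoded by Ddx58 (RIG-I) and Ifih1 (MDA5), which activate transcription factors including IRF3 and IRF7 and so the genes for interferons. Secreted type I interferon binds the IFNAR1 and IFNAR2 receptor, whose kinases JAK1 and TYK2 phosphorylate STAT proteins. These join IRF9 in a complex named ISGF3, which binds the interferon-stimulated response element in the promoters of effector genes, while type II interferon acts through the gamma-activated site. The effectors block viral entry, translation and replication or mark infected cells.

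Promoters of a few members are shown first, because the interferon-stimulated response element is what joins many of these genes. The letters are the 250 bases before the RefSeq transcription start (build GRCm38.p6), read 5′ to 3′ on the gene's strand, and capitals mark each match to GAAA, any 2 bases and GAAA again, a core of that element, or to its reverse complement, with overlapping matches merged. Isg15 (chr4:156200819-156201068 on the minus strand), Ifit1 (chr19:34640639-34640888 on the plus strand), Ifit3 (chr19:34583279-34583528 on the plus strand) and Oas1c (chr5:120812515-120812764 on the minus strand) are members that were higher in cauda than in both other segments. Ifitm2 (chr7:140955962-140956211 on the minus strand) is a member with a match that was highest in caput, and Isg20 (chr7:78913174-78913423 on the plus strand), the member with the widest range between segments, has no match at any of its 3 RefSeq starts, of which the first is shown.
Isg15: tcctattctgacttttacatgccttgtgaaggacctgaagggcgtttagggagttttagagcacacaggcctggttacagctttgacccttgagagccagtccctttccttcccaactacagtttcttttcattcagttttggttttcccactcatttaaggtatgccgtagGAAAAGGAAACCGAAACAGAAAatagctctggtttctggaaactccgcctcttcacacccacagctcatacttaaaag
Ifit1: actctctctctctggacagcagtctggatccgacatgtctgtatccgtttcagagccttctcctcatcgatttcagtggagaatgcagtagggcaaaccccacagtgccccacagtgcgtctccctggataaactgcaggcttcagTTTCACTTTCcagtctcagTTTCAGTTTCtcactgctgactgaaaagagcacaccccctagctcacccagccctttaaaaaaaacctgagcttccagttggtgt
Ifit3: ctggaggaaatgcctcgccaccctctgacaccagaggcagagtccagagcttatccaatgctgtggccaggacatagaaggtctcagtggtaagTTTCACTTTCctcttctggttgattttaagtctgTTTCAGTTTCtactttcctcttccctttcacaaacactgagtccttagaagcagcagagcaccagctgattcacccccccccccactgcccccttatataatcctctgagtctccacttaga
Oas1c: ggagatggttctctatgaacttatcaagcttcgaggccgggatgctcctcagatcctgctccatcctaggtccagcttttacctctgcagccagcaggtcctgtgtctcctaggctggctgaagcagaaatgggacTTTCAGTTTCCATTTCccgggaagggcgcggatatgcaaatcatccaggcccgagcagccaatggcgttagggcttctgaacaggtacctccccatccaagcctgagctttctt
Ifitm2: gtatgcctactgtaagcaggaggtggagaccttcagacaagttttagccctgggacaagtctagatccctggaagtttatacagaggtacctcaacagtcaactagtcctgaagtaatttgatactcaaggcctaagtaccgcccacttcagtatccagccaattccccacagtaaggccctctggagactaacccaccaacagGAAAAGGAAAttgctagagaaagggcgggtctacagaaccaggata
Isg20: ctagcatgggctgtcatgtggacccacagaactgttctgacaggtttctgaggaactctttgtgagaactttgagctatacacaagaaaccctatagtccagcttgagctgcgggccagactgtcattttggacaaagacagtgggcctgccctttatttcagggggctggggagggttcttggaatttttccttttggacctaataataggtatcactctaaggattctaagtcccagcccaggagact

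Promoters were matched for 46 of the 62 members. The GAAA core, on either strand, lay in 17 of those 46 (37%), against 936 of 27025 genes with a promoter in the table (3.46%). Among the matched members that passed the test as higher in cauda than in corpus, 11 of 19 held it (57.9%), against 5 of 18 of the other tested members (27.8%). Those 18 include the 4 genes that share only a name prefix with the group, and none of these held it, which lowers the second share. The cauda-high members shown above all held it, and so did Bst2 and Oas1g, also called higher in cauda than in both other segments. Ifit2, Ifih1, Irf1, Ifi44, Oasl2 and Xaf1 were called so too and held no match. The core of the gamma-activated site, TTCNNNGAA, which reads the same on both strands, lay in 11 of the 46 (23.9%), against 8.13% of genes, and lay in 5 of the 19 members higher in cauda than in corpus and in 5 of the 18 other tested members. A match is a stretch of letters and not a measured binding site, and these shares were not tested.

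Libraries held 2600061 to 6076479 counts over genes, of which members took 0.106% to 0.193%. Levels are given as CPM, counts scaled to a common library total with TMM factors, and 1 count was worth 0.155 to 0.374 CPM. Caput epithelium markers (Lcn5, Lcn8, Rnase10, Cst8 and Ros1) summed to 14159 to 16177 CPM in caput and to at most 16.2 CPM in any corpus or cauda library. This fits the caput labels, but such markers do not check the corpus labels against the cauda labels. Differences between segments were tested with edgeR's quasi-likelihood test over all 14168 genes with enough counts, and "adjusted p" below is its Benjamini-Hochberg value over those genes, called at 0.05. Differences are log2 changes of the first segment named against the second, each with its standard error (SE).

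Per length of transcript, Isg20, the interferon-induced transmembrane genes Ifitm2 and Ifitm3, and Irf9 were among the 5 most abundant members in every segment, in an order that changed along the duct. On the deposited RPKM scale (which divides by gene length as well as by library depth, mean ± SD, n = 3), Ifitm3 led in caput at 93.7 ± 5.09, ahead of Ifitm2 at 68 ± 6.68, Isg20 at 22.3 ± 3.45 and Irf9 at 13.6 ± 1.81. Isg20 led in corpus at 187 ± 4.36, followed by Ifitm3 at 58.1 ± 15.9, Irf9 at 30.4 ± 2.66 and Ifitm2 at 20.6 ± 4.56. Isg20 also led in cauda at 119 ± 3.16, followed by Ifitm3 at 71.1 ± 4.25, Ifitm2 at 28.3 ± 2.31, Bst2 at 20 ± 2.09 and Irf9 at 17 ± 1.49. The libraries of neighbours in these 3 orders did not overlap, up to the fourth gene in each segment. Further down, Irf9 overlapped with Irf2bpl in caput.

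**Figure D1:**
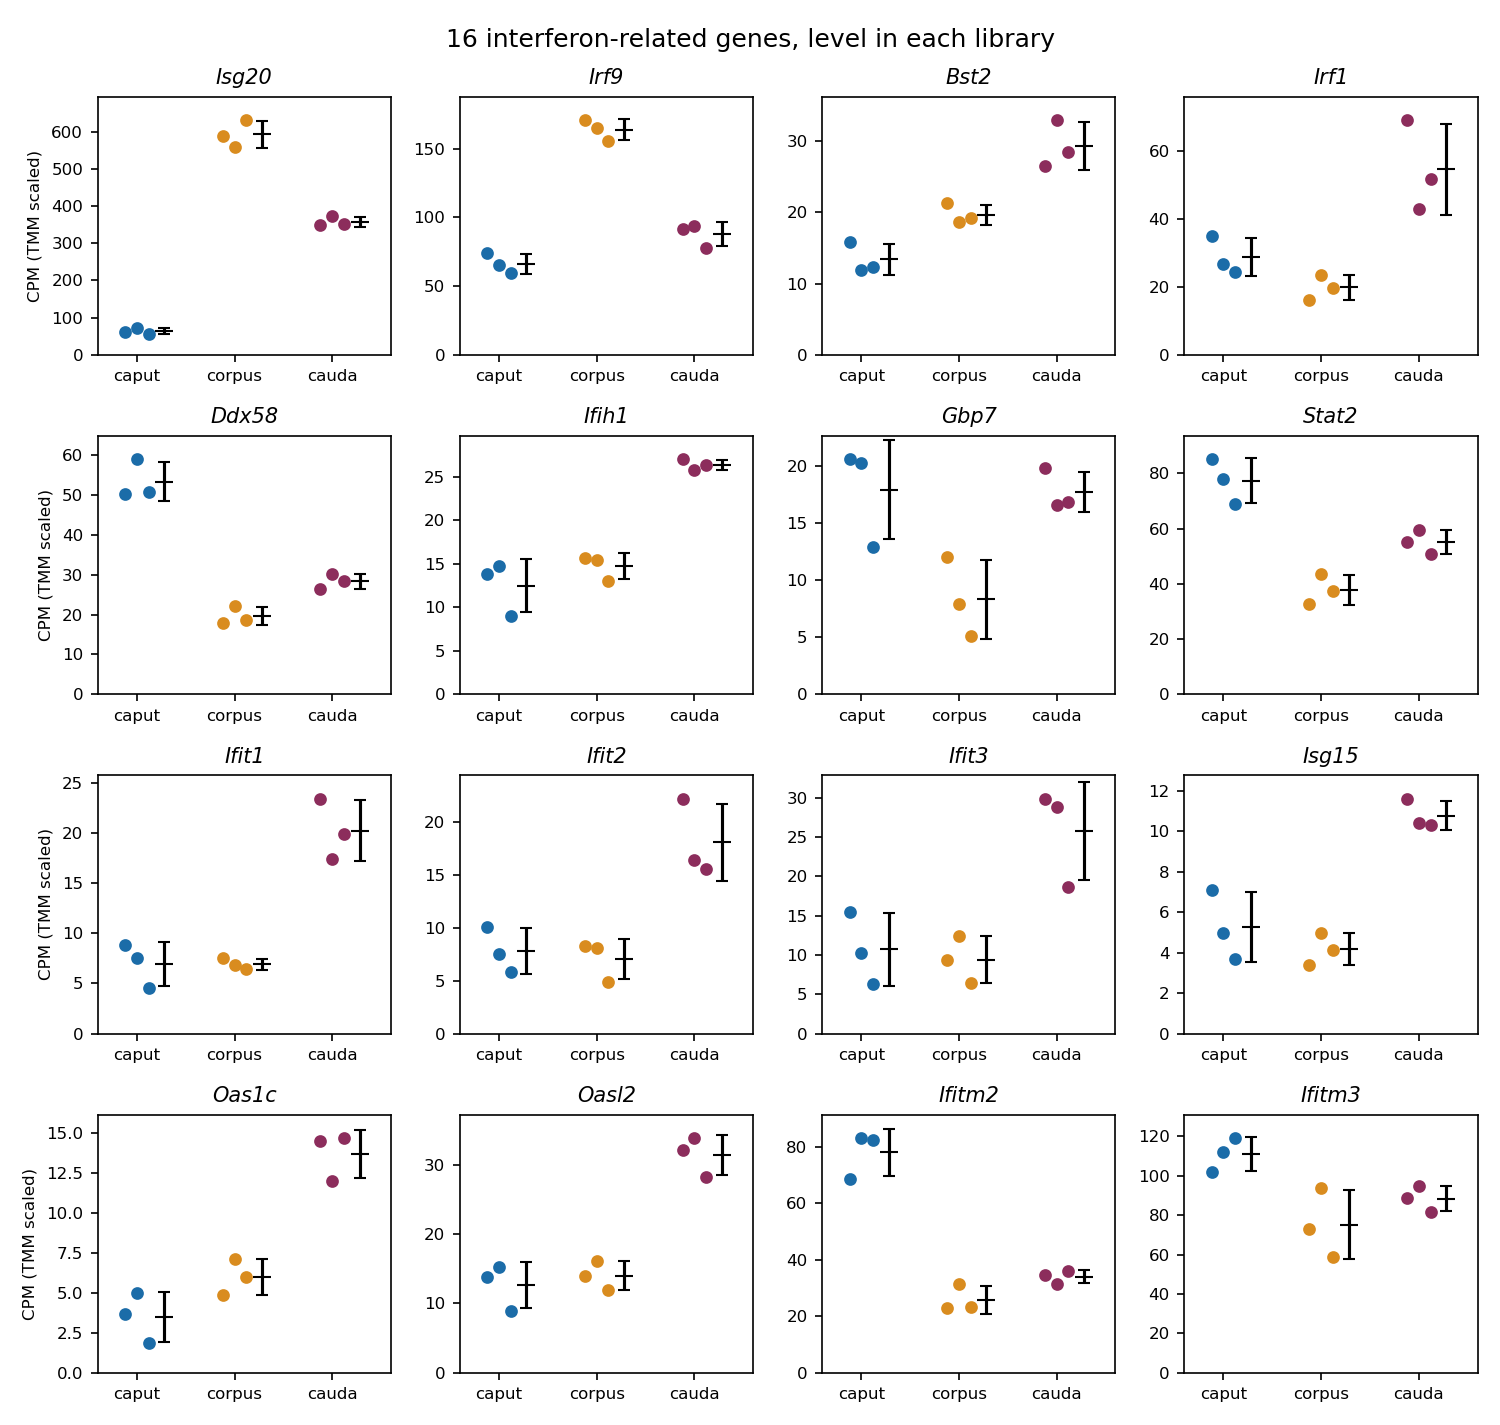
Level of 16 members in each library, in TMM-scaled CPM on linear axes that start at 0, with 1 point per library, 3 libraries for each of caput, corpus and cauda, and a bar for the mean ± SD. Isg20 stands at 56.5 to 72.7 in caput and 558 to 632 in corpus, while the Ifit genes stand highest in the cauda libraries.

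Summed over all 62 members, caput libraries held 1286, 1212 and 1105 CPM, corpus libraries 1771, 1820 and 1711 CPM, and cauda libraries 1749, 1708 and 1570 CPM. Caput stood below both other segments without overlap. Isg20 alone made up 4.86% to 5.99% of that sum in caput, 30.7% to 36.9% in corpus and 20% to 22.4% in cauda. Without Isg20 the sums were 1223, 1140 and 1048 CPM in caput, 1182, 1262 and 1079 in corpus and 1399, 1334 and 1219 in cauda, and all 3 ranges overlapped.

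Most of the members called in a comparison with cauda were higher in cauda. In cauda against corpus, 26 of the 50 tested members were called (52%, against 39.2% of all tested genes). Of these, 22 were higher in cauda (44%, against 18.8% of all genes) and 4 lower (8%, against 20.4%). In cauda against caput, 26 were called (52%, against 54.7%), 21 of them higher in cauda (42%, against 27.5%) and 5 lower (10%, against 27.2%). In corpus against caput, 15 were called (30%, against 57.7%), 7 higher in corpus (14%, against 29.5%) and 8 lower (16%, against 28.2%). These comparisons share libraries and are not independent.

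Over the 3 segments together, members were called about as often as other genes: 34 of 50 passed the F test (68%, against 69% of all genes). Fewer calls passed a fold limit. At 2-fold or more, 15 members were called higher in cauda than in corpus (30%, against 7.28% of all genes) and 0 lower (against 6.44%). Against caput, 16 were called at least 2-fold higher in cauda (32%, against 12.5%) and 1 lower (2%, against 12.6%). Between corpus and caput, 2 were called at least 2-fold higher (4%, against 12.7%) and 4 lower (8%, against 14.3%). The median log2 difference over the 50 was -0.08 for corpus against caput, 0.52 for cauda against corpus and 0.62 for cauda against caput, and over all tested genes it was 0.00, -0.01 and 0.01. When a library was left out, the members' median for corpus against caput ranged from -0.27 (without caput replicate 3) to 0.12 (without caput replicate 1) and was also above 0 without corpus replicate 3 (0.11). For cauda against corpus it ranged from 0.47 to 0.85, the latter without corpus replicate 2. For cauda against caput it ranged from 0.44 (without caput replicate 3) to 0.83 (without caput replicate 1).

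**Figure D2:**
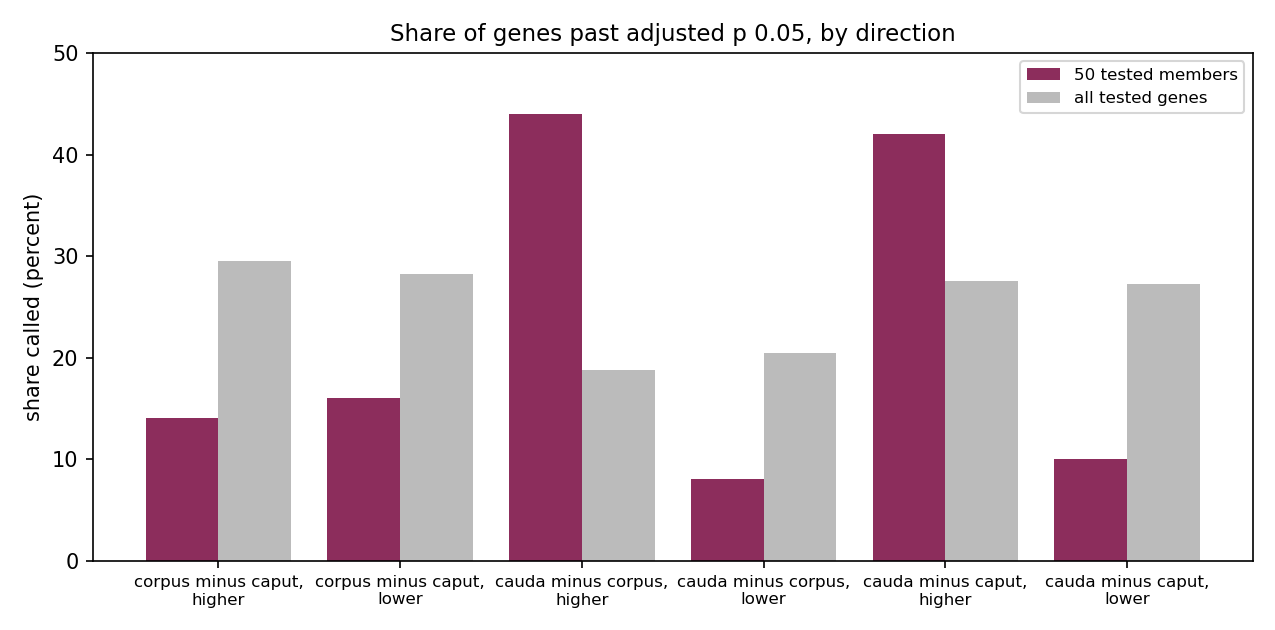
Share of genes called higher or lower (percent) in each pair of segments, for the 50 tested members and for all 14168 tested genes. In cauda against corpus, 44% of members against 18.8% of all genes were higher, and 8% against 20.4% were lower.

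Cauda held the highest segment mean of 31 of the 50 tested members (62%, against 28.0% of all tested genes) and the lowest of 3 (6%, against 28.0%). Corpus held the lowest mean of 27 (54%, against 32.5%) and caput of 20 (40%, against 39.5%). In whole tissue, fewer cells of a type and less RNA per cell cannot be told apart.

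**Figure D3:**
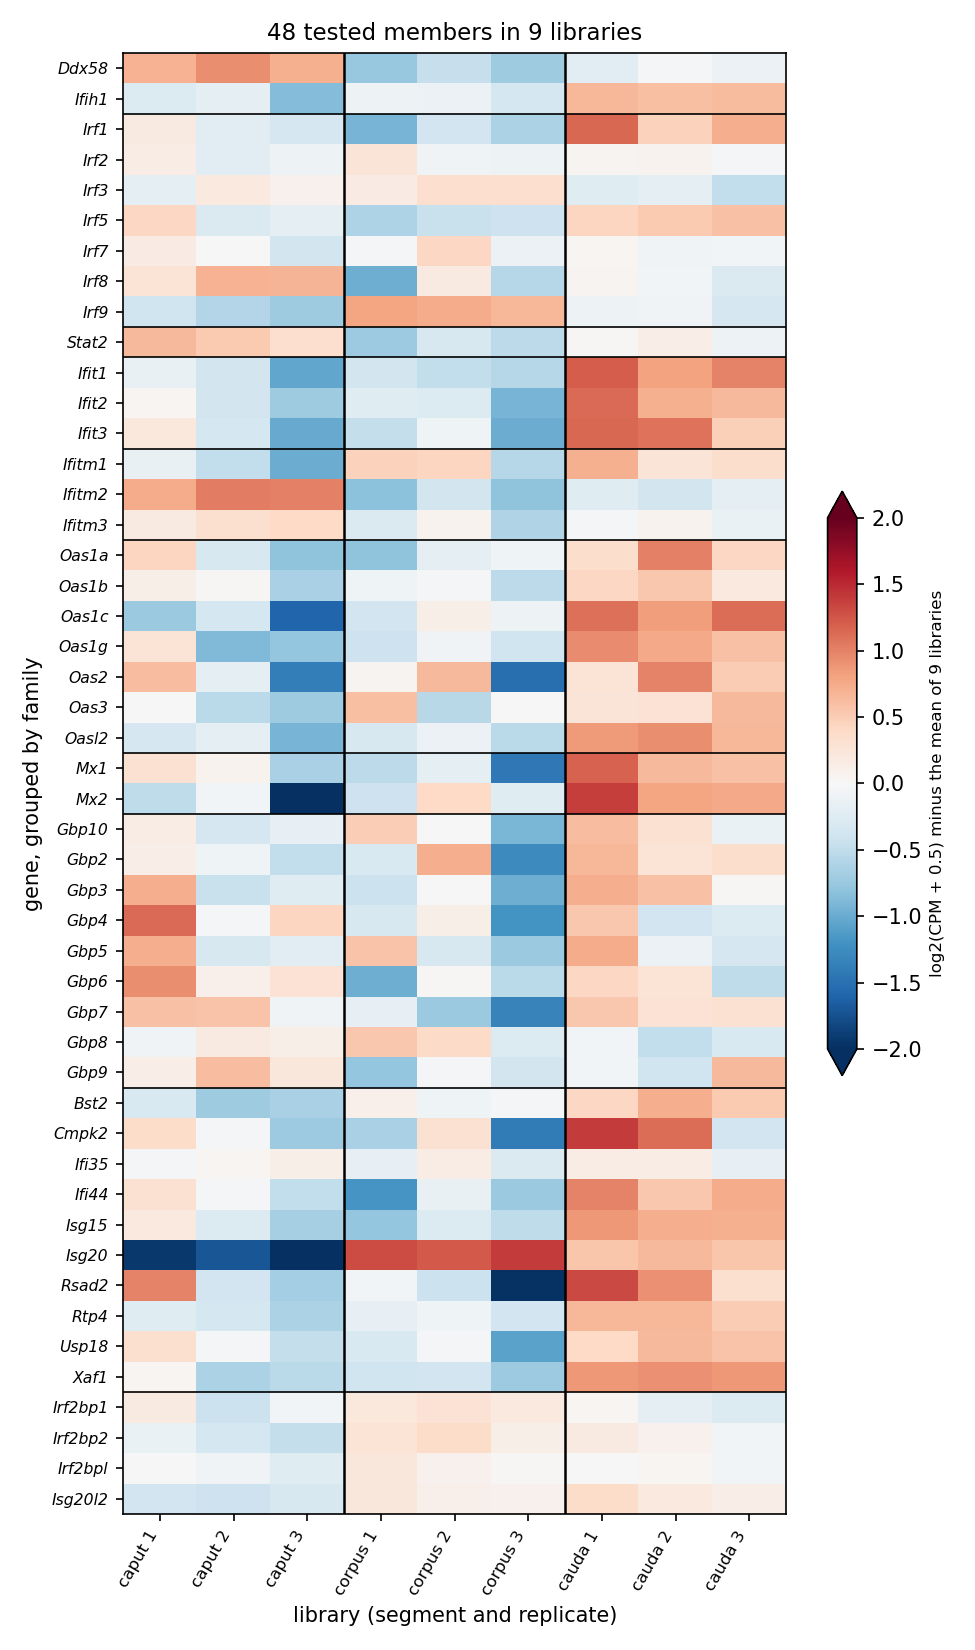
Level of 48 tested members in each of the 9 libraries, as log2(CPM + 0.5) minus the gene's mean over the 9 libraries, red for higher and blue for lower, with libraries grouped by segment. Most Ifit, Oas and effector rows are highest in the 3 cauda columns, while Isg20 and Irf9 are lowest in the 3 caput columns.

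The 2 RNA sensors among the members differed in opposite directions between caput and cauda. Ddx58 encodes RIG-I, which binds short RNA with a triphosphate end, and its libraries stood at 50.3, 59 and 50.7 CPM in caput, 18, 22.2 and 18.6 in corpus, and 26.3, 30.2 and 28.5 in cauda. Caput libraries were all the highest and no segments overlapped. The difference was -1.42 log2 (SE 0.12, adjusted p = 3.08e-07) for corpus against caput, 0.51 log2 (SE 0.12, adjusted p = 0.00459) for cauda against corpus and -0.91 log2 (SE 0.11, adjusted p = 1.45e-05) for cauda against caput. Ifih1 encodes MDA5, which binds long double-stranded RNA, and stood at 13.8, 14.7 and 8.97 CPM in caput, 15.7, 15.4 and 13 in corpus, and 27, 25.8 and 26.3 in cauda. Caput and corpus overlapped and all cauda libraries were above both. Cauda exceeded corpus by 0.85 log2 (SE 0.16, adjusted p = 8.61e-04) and caput by 1.09 log2 (SE 0.17, adjusted p = 1.18e-04), while corpus against caput gave 0.24 log2 (SE 0.18, adjusted p = 0.284).

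Of the components of ISGF3, Stat2, which acts in type I signalling, stood at 85.1, 78 and 68.9 CPM in caput, 32.6, 43.4 and 37.5 in corpus, and 55.2, 59.4 and 50.7 in cauda. All 3 segments were apart, with corpus lowest: -1.0 log2 (SE 0.12, adjusted p = 7.66e-06) for corpus against caput, 0.52 log2 (SE 0.12, adjusted p = 0.00316) for cauda against corpus and -0.49 log2 (SE 0.11, adjusted p = 0.0024) for cauda against caput.

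Irf9, the DNA-binding component of ISGF3, had the opposite order to Stat2, with corpus highest. Its libraries stood at 74.3, 65.2 and 59.9 CPM in caput, 171, 165 and 156 in corpus, and 91.9, 93.5 and 77.7 in cauda. No segments overlapped, and corpus exceeded caput by 1.31 log2 (SE 0.10, adjusted p = 1.03e-07), a 2.47-fold difference. Cauda was below corpus, at -0.90 log2 (SE 0.09, adjusted p = 5.21e-06) and above caput by 0.40 log2 (SE 0.10, adjusted p = 0.00401).

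Among the other interferon regulatory factors, Irf1, which responds to type II interferon and drives many effector genes, stood at 35.1, 26.8 and 24.5 CPM in caput, 16.1, 23.6 and 19.8 in corpus, and 69.2, 43 and 51.7 in cauda. Every cauda library was above every other library: 1.43 log2 (SE 0.19, adjusted p = 4.78e-05) against corpus and 0.94 log2 (SE 0.19, adjusted p = 8.76e-04) against caput. Corpus libraries lay below caput without overlap, with -0.49 log2 (SE 0.21, adjusted p = 0.0613), which missed the threshold. Irf5, active in myeloid cells, also had its highest mean in cauda, with libraries at 7.43, 4.37 and 4.75 CPM in caput, 3.37, 3.88 and 3.95 in corpus, and 7.52, 8.01 and 8.45 in cauda. It was called only against corpus, 1.07 log2 (SE 0.24, adjusted p = 0.00284).

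Irf3, the factor downstream of the sensors, stood at 42.5, 55.8 and 51.5 CPM in caput, 54.7, 61.4 and 61.8 in corpus, and 41, 42.6 and 34.6 in cauda. It was lower in cauda than in corpus, at -0.60 log2 (SE 0.11, adjusted p = 8.29e-04). Against caput it was also called, at -0.35 log2 (SE 0.12, adjusted p = 0.0231), although the libraries overlapped, and the call was lost without caput replicate 2 (adjusted p = 0.119), caput replicate 3 (0.07) or cauda replicate 3 (0.0862).

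Irf8, a factor of macrophages and dendritic cells, stood at 13.2, 17.8 and 17.7 CPM in caput, 5.24, 12.4 and 7.16 in corpus, and 11.3, 10.4 and 8.78 in cauda, highest in caput without overlap. Corpus was lower, at -0.89 log2 (SE 0.26, adjusted p = 0.0105) and cauda, at -0.68 log2 (SE 0.25, adjusted p = 0.0362), the latter lost without caput replicate 2 (adjusted p = 0.114), caput replicate 3 (0.112), cauda replicate 2 (0.0709) or cauda replicate 3 (0.102). Beside it, 15 macrophage and dendritic markers summed to 332 to 361 CPM in caput, 196 to 270 in corpus and 262 to 350 in cauda. Of these markers, 0 were called higher and 6 lower in corpus than in caput (against 29.5% and 28.2% of all genes). In cauda against caput 1 was higher and 4 lower (against 27.5% and 27.2%), the latter near the share of all genes. In cauda against corpus 2 were higher and 0 lower (against 18.8% and 20.4%). Their part in the result was not tested. Irf2, a competitor of IRF1, ranged over 35.2 to 48.7 CPM, and Irf7, which amplifies interferon production, over 19.5 to 34.1 CPM, and neither was called in any comparison.

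**Figure D4:**
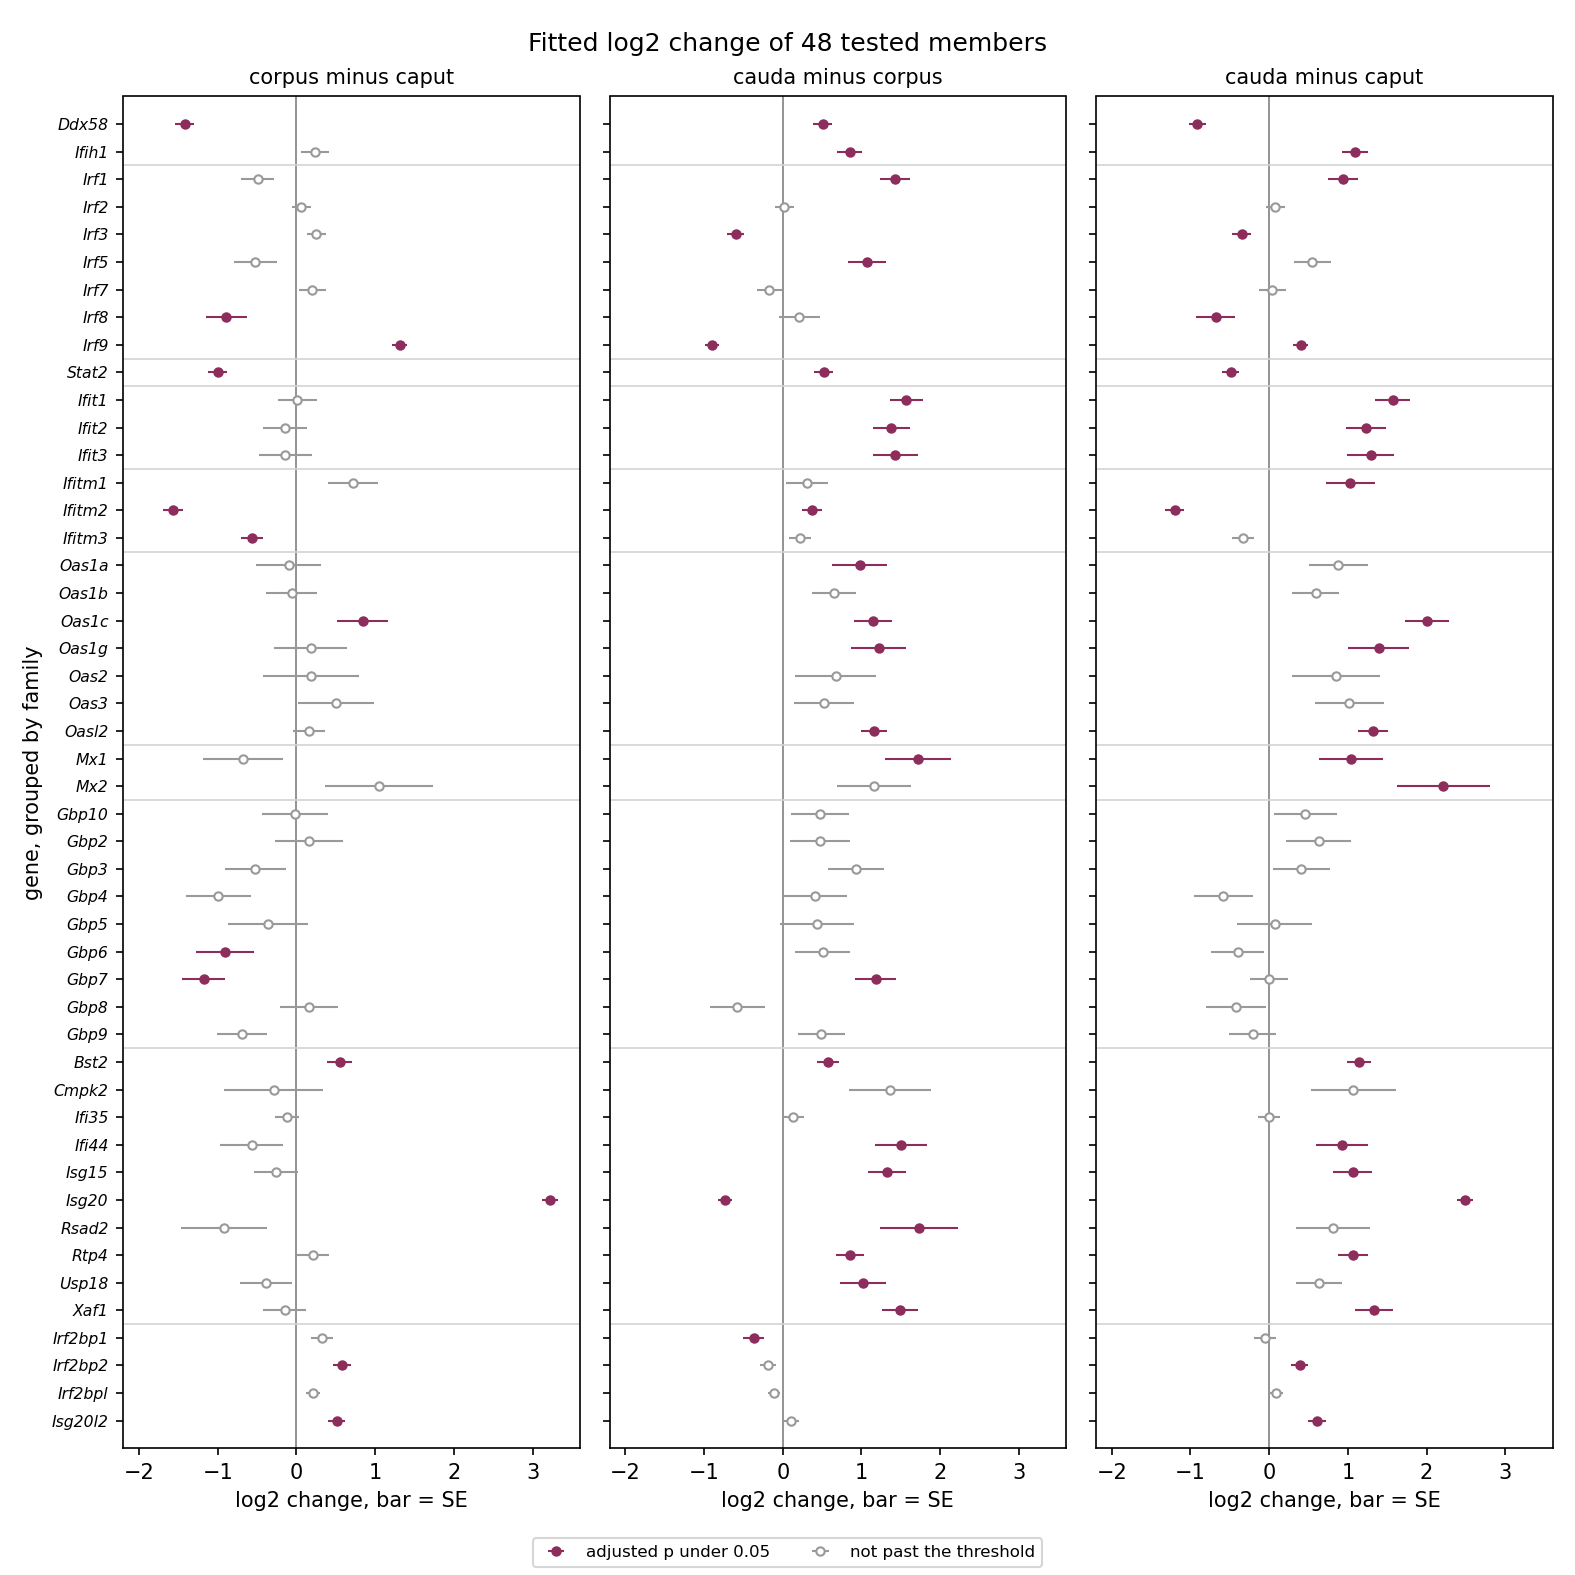
Fitted log2 difference with its standard error for 48 tested members in the 3 pairs of segments, with filled points for an adjusted p under 0.05. Most points lie right of 0 in the 2 panels with cauda as the first segment, and Isg20 stands apart at 3.22 in corpus against caput.

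The 3 Ifit genes, which belong to a family of antiviral effectors, rose together in cauda. Ifit1 stood at 8.78, 7.49 and 4.49 CPM in caput, 7.49, 6.82 and 6.4 in corpus, and 23.4, 17.4 and 19.9 in cauda. All cauda libraries were above all others, by 1.57 log2 (SE 0.21, adjusted p = 5.74e-05) against corpus and 1.57 log2 (SE 0.22, adjusted p = 4.85e-05) against caput. Ifit2 stood at 10.1, 7.49 and 5.81 CPM in caput, 8.24, 8.06 and 4.9 in corpus, and 22.2, 16.4 and 15.6 in cauda, with 1.38 log2 (SE 0.24, adjusted p = 5.30e-04) and 1.23 log2 (SE 0.25, adjusted p = 0.00102). Ifit3 stood at 15.5, 10.3 and 6.33 CPM in caput, 9.36, 12.4 and 6.4 in corpus, and 29.9, 28.8 and 18.6 in cauda, with 1.43 log2 (SE 0.29, adjusted p = 0.00152) and 1.29 log2 (SE 0.30, adjusted p = 0.00263). In all 3 genes, cauda did not overlap either other segment, and corpus and caput overlapped, with log2 differences of 0.01, -0.15 and -0.14. They lie near each other on chromosome 19, with Ifit1 at chr19:34640871-34650009, and 58.5% of Ifit3's 36-base windows also occur in other annotated genes, mainly Ifit3b, so that its level is uncertain.

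The Oas family is known for synthetases that make short oligoadenylates, the activator of RNase L, when they bind double-stranded RNA. Of the 7 that were tested, 4 were called higher in cauda than in corpus, against 18.8% of all tested genes. Oasl2, a relative that belongs to the same family, stood at 13.8, 15.3 and 8.97 CPM in caput, 13.9, 16.1 and 11.9 in corpus, and 32.1, 33.8 and 28.2 in cauda. Cauda was above both other segments without overlap, by 1.16 log2 (SE 0.17, adjusted p = 1.52e-04) against corpus and 1.32 log2 (SE 0.19, adjusted p = 4.82e-05) against caput. Oas1c stood at 3.71, 4.99 and 1.85 CPM in caput, 4.87, 7.13 and 6.03 in corpus, and 14.5, 12 and 14.7 in cauda. It was higher in cauda by 1.15 log2 (SE 0.24, adjusted p = 0.00196) against corpus and 2.0 log2 (SE 0.28, adjusted p = 5.07e-05) against caput, a 3.99-fold difference. Its difference between corpus and caput, 0.84 log2 (SE 0.32, adjusted p = 0.0356), rested on overlapping libraries and was lost without caput replicate 1 (adjusted p = 0.0634), caput replicate 3 (0.171) or corpus replicate 2 (0.119).

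Oas1g stood at 2.7, 0.936 and 1.06 CPM in caput, 1.5, 2.02 and 1.51 in corpus, and 4.61, 4 and 3.48 in cauda and Oas1a at 5.06, 2.81 and 1.85 CPM in caput, 1.87, 3.1 and 3.39 in corpus, and 4.78, 7.81 and 4.97 in cauda. Oas1g was higher in cauda than in corpus by 1.22 log2 (SE 0.35, adjusted p = 0.0147) and than in caput by 1.39 log2 (SE 0.39, adjusted p = 0.0085), with 1.98 for the latter without caput replicate 1, and the first call was lost without cauda replicate 1 (adjusted p = 0.053). Oas1a exceeded corpus by 0.98 log2 (SE 0.35, adjusted p = 0.0394), a call lost without caput replicate 2 (adjusted p = 0.0524), corpus replicate 1 (0.105), corpus replicate 2 (0.0715) or cauda replicate 2 (0.158). These 2 genes share sequence, with 65.7% of Oas1a's and 52.5% of Oas1g's 36-base windows also found in other genes, so reads could not be assigned to one of them with certainty. Oas1b ranged over 2.37 to 6 CPM, Oas2 over 0.942 to 7.61 CPM and Oas3 over 1.06 to 3.48 CPM, and none was called. The annotation used here lists Oas1b as a polymorphic pseudogene.

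Intact Mx genes encode dynamin-like GTPases that trap viral particles, but C57BL/6 mice are known to carry defective alleles of both, and the annotation used here lists Mx2 as a polymorphic pseudogene. Both transcripts were scarce. Mx1 stood at 3.04, 2.5 and 1.32 CPM in caput, 1.5, 2.02 and 0.565 in corpus, and 5.98, 4 and 3.81 in cauda. Cauda was above corpus by 1.72 log2 (SE 0.42, adjusted p = 0.00531), or 2.33 without corpus replicate 2, and above caput by 1.04 log2 (SE 0.41, adjusted p = 0.0487). The second call was lost without either of caput replicates 2 and 3, corpus replicate 1, or cauda replicates 1 and 2 (adjusted p from 0.0624 to 0.199). Mx2 stood at 1.01, 1.56 and 0 CPM in caput, 1.12, 2.33 and 1.32 in corpus, and 5.12, 3.2 and 3.15 in cauda, with 1 caput library at 0. It was higher in cauda than in caput by 2.21 log2 (SE 0.59, adjusted p = 0.00656), or 3.03 without caput replicate 2 and 1.55 without caput replicate 3. Against corpus, cauda gave 1.16 log2 (SE 0.47, adjusted p = 0.0656), which missed the threshold although the libraries did not overlap.

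Isg15, a ubiquitin-like protein attached to other proteins under interferon, stood at 7.09, 4.99 and 3.69 CPM in caput, 3.37, 4.96 and 4.14 in corpus, and 11.6, 10.4 and 10.3 in cauda. Cauda was above both other segments without overlap, by 1.32 log2 (SE 0.24, adjusted p = 6.35e-04) against corpus and 1.06 log2 (SE 0.25, adjusted p = 0.00256) against caput. Usp18, the protease that removes ISG15, stood at 7.76, 5.93 and 4.22 CPM in caput, 4.87, 5.89 and 2.64 in corpus, and 8.2, 9.81 and 9.28 in cauda. It was called against corpus only, 1.02 log2 (SE 0.29, adjusted p = 0.013), and the call was lost without corpus replicate 3 (adjusted p = 0.0506).

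Bst2 encodes tetherin, which holds budding virus at the cell surface, and it rose at each step along the duct. Its libraries stood at 15.9, 11.9 and 12.4 CPM in caput, 21.3, 18.6 and 19.2 in corpus, and 26.5, 33 and 28.5 in cauda, with no overlap between any segments. The difference was 0.55 log2 (SE 0.16, adjusted p = 0.00922) for corpus against caput, 0.58 log2 (SE 0.14, adjusted p = 0.00417) for cauda against corpus and 1.14 log2 (SE 0.15, adjusted p = 2.69e-05) for cauda against caput. Rtp4, a chaperone of receptors, stood at 7.76, 7.17 and 5.81 CPM in caput, 8.24, 8.68 and 6.97 in corpus, and 14.9, 15 and 13.3 in cauda and was higher in cauda by 0.85 log2 (SE 0.18, adjusted p = 0.00174) against corpus and 1.06 log2 (SE 0.19, adjusted p = 3.39e-04) against caput. Xaf1, which binds the inhibitor of apoptosis XIAP, stood at 5.74, 3.43 and 3.69 CPM in caput, 4.12, 4.19 and 3.2 in corpus, and 10.6, 11 and 10.6 in cauda, with 1.49 log2 (SE 0.23, adjusted p = 1.63e-04) and 1.33 log2 (SE 0.24, adjusted p = 3.33e-04). For both genes all cauda libraries were above all others, and corpus overlapped caput.

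Ifi44 stood at 4.05, 3.12 and 2.11 CPM in caput, 1.12, 2.79 and 1.69 in corpus, and 6.83, 4.8 and 5.63 in cauda. Cauda exceeded corpus by 1.50 log2 (SE 0.33, adjusted p = 0.00288) and caput by 0.92 log2 (SE 0.33, adjusted p = 0.0316), the latter lost without caput replicates 2 or 3 or cauda replicates 1 or 3 (adjusted p from 0.0538 to 0.14). Rsad2, which encodes viperin and makes a chain-terminating nucleotide, stood at 13.8, 4.99 and 3.96 CPM in caput, 6.37, 4.81 and 1.32 in corpus, and 17.4, 13 and 8.45 in cauda. Its libraries spread widely within each segment, and only the difference from corpus was called, 1.73 log2 (SE 0.49, adjusted p = 0.0127), lost without cauda replicate 1 (adjusted p = 0.0558). Cmpk2, a nucleotide kinase beside Rsad2 on chromosome 12, ranged over 1.13 to 10.9 CPM and gave 1.36 log2 (SE 0.52, adjusted p = 0.0563) against corpus, which missed the threshold. Ifi35 ranged over 21.3 to 29 CPM and was not called.

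The Ifitm genes encode membrane proteins that stop viruses from fusing, and their 3 tested members did not follow the cauda profile in common. Ifitm2 stood at 68.5, 83 and 82.3 CPM in caput, 22.8, 31.5 and 23.2 in corpus, and 34.5, 31.4 and 36 in cauda. Caput libraries were far above all others, with -1.57 log2 (SE 0.13, adjusted p = 2.77e-07) for corpus against caput and -1.20 log2 (SE 0.12, adjusted p = 2.75e-06) for cauda against caput. Corpus and cauda overlapped, and their called difference, 0.37 log2 (SE 0.13, adjusted p = 0.0444), was lost without any one of caput replicates 2 and 3, corpus replicates 1 and 3 or cauda replicates 1 and 3 (adjusted p from 0.052 to 0.167). Ifitm3 stood at 102, 112 and 119 CPM in caput, 73, 93.8 and 58.8 in corpus, and 88.7, 94.7 and 81.7 in cauda, lower in corpus than in caput, at -0.56 log2 (SE 0.14, adjusted p = 0.00418). Ifitm1, scarcer than both, stood at 8.44, 6.55 and 4.49 CPM in caput, 13.1, 12.9 and 6.21 in corpus, and 15.7, 11.4 and 12.1 in cauda and was higher in cauda than in caput by 1.03 log2 (SE 0.31, adjusted p = 0.0118), lost without caput replicate 3 (adjusted p = 0.0653). Of Ifitm2's 36-base windows, 53.4% also occur in other annotated genes, and of Ifitm3's 17%.

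The guanylate-binding proteins are GTPases that attack the membranes around pathogens, and type II interferon induces them strongly. Of the 9 that were tested, 2 were called in corpus against caput (against 57.7% of all genes). In cauda against corpus 1 was called (against 39.2%), and in cauda against caput 0 (against 54.7%). Only 1 gene, Gbp7, was called in more than 1 comparison. Gbp7 stood at 20.6, 20.3 and 12.9 CPM in caput, 12, 7.91 and 5.08 in corpus, and 19.8, 16.6 and 16.9 in cauda, lowest in corpus without overlap, at -1.18 log2 (SE 0.27, adjusted p = 0.00211) against caput and with 1.18 log2 (SE 0.26, adjusted p = 0.00248) for cauda against corpus. Gbp6 stood at 9.79, 5.3 and 6.07 CPM in caput, 2.25, 4.96 and 3.2 in corpus, and 6.66, 6 and 3.31 in cauda and was lower in corpus than in caput, at -0.91 log2 (SE 0.37, adjusted p = 0.0485). That call was lost without caput replicates 1 or 3, corpus replicates 1 or 3 or cauda replicate 2 (adjusted p from 0.0599 to 0.212), and 73% of its 36-base windows occur in other genes.

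The 7 remaining tested Gbp genes were not called. Gbp2 ranged over 3.01 to 13.6 CPM, Gbp3 over 2.64 to 9.79 CPM, Gbp4 over 2.64 to 15.2 CPM and Gbp5 over 1.51 to 5.12 CPM. Gbp8 ranged over 1.4 to 3.37 CPM, Gbp9 over 3.74 to 10.8 CPM and Gbp10, with 88.5% of its windows shared with other genes, over 1.51 to 5.3 CPM. The closest to the threshold were Gbp4 in corpus against caput, -0.99 log2 (SE 0.41, adjusted p = 0.0518), and Gbp3 in cauda against corpus, 0.93 log2 (SE 0.35, adjusted p = 0.0539).

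Isg20 had the largest fitted difference of any tested member. It encodes an exonuclease that degrades single-stranded RNA and lies at chr7:78913424-78920396 (mm10, GENCODE M21 gene model), where no exon of another gene overlaps its own. Its libraries stood at 62.4, 72.7 and 56.5 CPM in caput, 589, 558 and 632 in corpus, and 350, 374 and 351 in cauda. No segments overlapped: all corpus libraries were highest and all caput libraries lowest. Corpus exceeded caput by 3.22 log2 (SE 0.10, adjusted p = 9.84e-12), a 9.3-fold difference, and cauda exceeded caput by 2.49 log2 (SE 0.10, adjusted p = 1.13e-10), or 5.62-fold. Cauda was below corpus, at -0.73 log2 (SE 0.09, adjusted p = 1.65e-05). The order of segments was thus that of Irf9 and not that of the Ifit, Oas or Isg15 genes.

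The 4 genes matched by name only are no known interferon effectors. Irf2bp1, Irf2bp2 and Irf2bpl encode IRF2-binding repressors, and Isg20l2 a nucleolar exonuclease of ribosome assembly. Irf2bp2 stood at 104, 89.2 and 81.3 CPM in caput, 137, 147 and 123 in corpus, and 129, 121 and 109 in cauda, and Isg20l2 at 25, 24.6 and 26.1 CPM in caput, 38.6, 35.2 and 34.8 in corpus, and 42.2, 37.6 and 36.1 in cauda. Both were lowest in caput: corpus exceeded caput by 0.58 log2 (SE 0.11, adjusted p = 4.20e-04) and 0.51 log2 (SE 0.11, adjusted p = 0.00129). Cauda exceeded caput by 0.39 log2 (SE 0.11, adjusted p = 0.00682) and 0.61 log2 (SE 0.11, adjusted p = 2.73e-04). Irf2bp1 stood at 48.6, 31.8 and 41.2 CPM in caput, 49.8, 52.6 and 49.2 in corpus, and 44.1, 37.8 and 35.3 in cauda and was lower in cauda than in corpus, at -0.37 log2 (SE 0.13, adjusted p = 0.0367), lost without corpus replicates 1 or 2 or cauda replicates 2 or 3 (adjusted p from 0.069 to 0.118). Irf2bpl ranged over 88.4 to 122 CPM and was not called. Leaving these 4 out, 46 members were tested, with 5 higher and 8 lower in corpus than in caput (against 29.5% and 28.2% of all genes). There were 22 higher and 3 lower in cauda than in corpus (against 18.8% and 20.4%), and 19 higher and 5 lower in cauda than in caput (against 27.5% and 27.2%).

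The 12 members with too few counts for a test held from 1 to 49 counts over all 9 libraries. They were Gbp11 with 25, Gbp2b with 6, Ifitm10 with 49, Ifitm5 with 5, Ifitm6 with 25, Ifitm7 with 43, Irf4 with 33, Oas1d with 8, Oas1e with 13, Oas1f with 1, Oas1h with 2 and Oasl1 with 48. Oasl1, an Oas relative without synthetase activity, had 4, 5 and 4 counts in the caput libraries, 1, 2 and 1 in corpus and 16, 10 and 5 in cauda. Oas1e had 0 counts in caput, 1 in corpus and 12 in cauda. No difference was tested for these genes, and absence cannot be read from so few counts.

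Upstream of the members, interferon transcripts were nearly undetected. Of 19 listed interferon genes in the table, 10 had 0 counts in every library and the other 9 held 20 counts together, 11 of them in Ifnz. By segment, caput held 5 of these counts, corpus 4 and cauda 11. These are raw counts, and depth differed, with 3013470 to 3946335 counts per library in caput and 5095298 to 6072094 in cauda. None was tested. The receptors and kinases were all measurable: of 9 tested, 3 were called higher and 3 lower in corpus than in caput (against 29.5% and 28.2% of all genes), shares near those of all genes. In cauda against corpus 0 were higher and 3 lower (against 18.8% and 20.4%), and in cauda against caput 1 was higher and 5 lower (against 27.5% and 27.2%).

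Ifngr2, a chain of the type II receptor, stood at 213, 211 and 188 CPM in caput, 19.5, 23.9 and 23.9 in corpus, and 27.2, 27.8 and 25.5 in cauda. Caput was far above the rest, with -3.15 log2 (SE 0.10, adjusted p = 1.08e-11) for corpus and -2.92 log2 (SE 0.09, adjusted p = 1.56e-11) for cauda. Its partner chain Ifngr1 stood at 86.4, 78.9 and 102 CPM in caput, 131, 143 and 139 in corpus, and 113, 96.5 and 97.6 in cauda and was highest in corpus, by 0.63 log2 (SE 0.10, adjusted p = 1.31e-04) over caput. Jak2, the kinase bound to Ifngr2, averaged 79.6 ± 5.49 CPM in caput (SD, n = 3), 215 ± 38 in corpus and 246 ± 16.7 in cauda, higher in corpus than in caput by 1.43 log2 (SE 0.12, adjusted p = 3.26e-07) and in cauda than in caput by 1.62 log2 (SE 0.12, adjusted p = 9.47e-08). Il10rb, a chain shared with the type III interferon receptor, was highest in caput, with -1.83 log2 (SE 0.13, adjusted p = 7.41e-08) for corpus against caput.

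The type I receptor chains had smaller differences. Ifnar1 stood at 74.9, 67.7 and 77.3 CPM in caput, 70, 66.4 and 71.4 in corpus, and 51.6, 49.8 and 57.2 in cauda and was lower in cauda than in caput, at -0.47 log2 (SE 0.09, adjusted p = 4.99e-04). Ifnar2 averaged 40.6 ± 1.93, 25.2 ± 6.26 and 30.9 ± 3.55 CPM in caput, corpus and cauda, with -0.65 log2 (SE 0.16, adjusted p = 0.00315) for corpus against caput. Tyk2 was highest in corpus, by 0.33 log2 (SE 0.10, adjusted p = 0.0118) over caput, and Jak1 was called in no pair, at 197 ± 14.7, 199 ± 6.16 and 176 ± 13.1 CPM.

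Of 14 other sensors and adaptors, 1 was called higher and 7 lower in corpus than in caput (against 29.5% and 28.2% of all genes), and 2 higher and 1 lower in cauda than in corpus (against 18.8% and 20.4%). In cauda against caput 1 was higher and 4 lower (against 27.5% and 27.2%), the latter near the share of all genes. Tlr3, the endosomal receptor for double-stranded RNA, stood at 22.3, 25.6 and 25.3 CPM in caput, 14.6, 12.7 and 14.5 in corpus, and 66.8, 63.8 and 78.7 in cauda. All cauda libraries were above all others, by 2.34 log2 (SE 0.12, adjusted p = 6.81e-09) against corpus and 1.51 log2 (SE 0.11, adjusted p = 1.15e-07) against caput. Tmem173, which encodes STING, stood at 27.7, 18.1 and 25.9 CPM in caput, 5.99, 7.6 and 4.71 in corpus, and 6.49, 5.6 and 5.47 in cauda and was highest in caput, with -1.95 log2 (SE 0.22, adjusted p = 6.43e-06) for corpus and -2.02 log2 (SE 0.22, adjusted p = 4.20e-06) for cauda. The adaptors Myd88 and Traf3 were also lower in cauda than in caput, at -0.87 log2 (SE 0.12, adjusted p = 4.93e-05) and -0.75 log2 (SE 0.14, adjusted p = 3.88e-04).

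Among 10 negative regulators, 5 were called higher and 1 lower in cauda than in caput (against 27.5% and 27.2% of all genes), and 4 higher and 1 lower in cauda than in corpus (against 18.8% and 20.4%). In corpus against caput 3 were higher and 1 lower (against 29.5% and 28.2%), the former near the share of all genes. Socs3, an inhibitor of JAK kinases, stood at 7.09, 4.68 and 4.22 CPM in caput, 25.8, 42.3 and 39.7 in corpus, and 92.4, 42.2 and 51.5 in cauda, higher in cauda than in caput by 3.57 log2 (SE 0.36, adjusted p = 1.98e-06). Tnfaip3, which encodes an inhibitor of NF-kappaB signalling, was higher in cauda by 2.19 log2 (SE 0.22, adjusted p = 1.97e-06) against caput. Ptpn6 was highest in corpus, by 1.16 log2 (SE 0.13, adjusted p = 3.73e-06) over caput, and Samhd1 highest in cauda, by 0.76 log2 (SE 0.13, adjusted p = 2.15e-04) over caput. Immediate early genes (Fos, Fosb, Jun, Junb, Egr1, Ier2 and Atf3) summed to 367 to 460 CPM in caput, 1745 to 2469 in corpus and 1521 to 3149 in cauda, and their part in the result for Socs3, Tnfaip3 and Irf1 was not tested.

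The 4 genes of ISG15 conjugation gave 1 called higher and 2 lower in corpus than in caput (against 29.5% and 28.2% of all genes), 2 higher and 0 lower in cauda than in corpus (against 18.8% and 20.4%), and 1 higher and 0 lower in cauda than in caput (against 27.5% and 27.2%). So few genes say little beside the share of all genes. Uba7, the activating enzyme, was lowest in caput, with 1.36 log2 (SE 0.14, adjusted p = 1.71e-06) for corpus. The ligases Herc6 and Trim25 were higher in cauda than in corpus, by 0.89 log2 (SE 0.18, adjusted p = 0.00158) and 0.69 log2 (SE 0.14, adjusted p = 0.00134), and Ube2l6, the conjugating enzyme, was not called.

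The immunity-related GTPases are induced by type II interferon like the Gbp genes. Of 9 tested, 0 were called higher and 3 lower in corpus than in caput (against 29.5% and 28.2% of all genes), the latter near the share of all genes. In cauda against corpus 5 were higher and 0 lower (against 18.8% and 20.4%), and in cauda against caput 1 was higher and 0 lower (against 27.5% and 27.2%). Irgm2 stood at 28, 28.1 and 25.9 CPM in caput, 11.2, 11.2 and 11.1 in corpus, and 27.2, 24.6 and 24.4 in cauda, with -1.29 log2 (SE 0.13, adjusted p = 1.49e-06) for corpus against caput, 1.18 log2 (SE 0.12, adjusted p = 5.29e-06) for cauda against corpus and -0.10 log2 (SE 0.11, adjusted p = 0.467) for cauda against caput. Irgm1 and Igtp were also lowest in corpus, with cauda above corpus by 1.02 log2 (SE 0.15, adjusted p = 1.30e-04) and 1.22 log2 (SE 0.21, adjusted p = 4.17e-04). Gm12250 was scarce, at 3.46 ± 2.19 CPM in cauda, and above corpus by 2.05 log2 (SE 0.62, adjusted p = 0.0183).

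Of 38 other interferon-stimulated genes outside the naming rule, 14 were called higher and 2 lower in cauda than in corpus (against 18.8% and 20.4% of all genes), 19 higher and 5 lower in cauda than in caput (against 27.5% and 27.2%), and 7 higher and 9 lower in corpus than in caput (against 29.5% and 28.2%). Ly6e, which encodes a surface protein that restricts coronaviruses, stood at 577, 515 and 479 CPM in caput, 3207, 2895 and 3387 in corpus, and 4891, 5362 and 5390 in cauda. It was lowest in caput and highest in cauda without overlap, by 3.32 log2 (SE 0.10, adjusted p = 7.38e-12), a 9.96-fold difference. Trim30a stood at 29.4, 14.7 and 17.7 CPM in caput, 7.86, 8.99 and 5.27 in corpus, and 57.1, 58.4 and 51 in cauda and was higher in cauda than in corpus by 2.90 log2 (SE 0.22, adjusted p = 3.44e-07). Shisa5 was also highest in cauda, by 0.85 log2 (SE 0.08, adjusted p = 1.80e-06) over caput, whereas Lgals3bp was highest in caput, with -0.56 log2 (SE 0.15, adjusted p = 0.00702) for cauda against caput. Over all these pathway lists, 43 of 84 tested genes were called in cauda against caput (51.2%, against 54.7% of all genes), and 28 genes without caput replicate 3. In corpus against caput 40 of the 84 were called (47.6%, against 57.7%), and in cauda against corpus 34 (40.5%, against 39.2%).

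Summed markers of some other cell types also differed between the segments, while those of others overlapped. Smooth muscle markers (Acta2, Myh11, Tagln, Cnn1, Des, Actg2 and Smtn) summed to 2034 to 2164 CPM in caput, 265 to 837 in corpus and 2925 to 5415 in cauda. Of the caput sums, Actg2 alone gave 1210, 1155 and 1363 CPM, against 21.3, 24.3 and 6.03 in corpus. All 7 markers were called higher in cauda than in corpus (against 18.8% of all genes). In cauda against caput 6 were higher and 1, Actg2, lower (against 27.5% and 27.2%). In corpus against caput 0 were higher and 3 lower (against 29.5% and 28.2%). Fibroblast markers summed to 714 to 867, 402 to 1098 and 1046 to 1238 CPM in caput, corpus and cauda, of which Pdgfra averaged 349, 40.3 and 55.1 CPM. Pdgfra ran against most of its list: of 7 fibroblast markers, 4 were called higher and 1, Pdgfra, lower in cauda than in caput (against 27.5% and 27.2%). In cauda against corpus 2 were higher and 0 lower (against 18.8% and 20.4%), and in corpus against caput 2 were higher and 1 lower (against 29.5% and 28.2%). Endothelial markers summed to 118 to 174, 84.4 to 179 and 88.5 to 136 CPM, with overlap in every pair of segments. Male germ cell and sperm markers such as Prm1 and Tnp1 rose from 108 to 140 CPM in caput to 409 to 451 in corpus and 625 to 947 in cauda. Lymphocyte markers summed to 23.2 to 27.4, 12.4 to 18.1 and 20.2 to 28.5 CPM, and 2 of 17 had enough counts for a test. No marker on these lists was at 0 in every library. Their part in the results on the members was not tested.

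Within a segment, the same libraries tended to hold the highest or lowest level of many members. Caput replicate 1 was the highest of its segment for 35 of the 50 tested members (70%, against 35.3% of all tested genes), corpus replicate 2 for 30 (60%, against 32.3%) and cauda replicate 1 for 28 (56%, against 33.4%). Replicate 3 was the lowest for 30 members in caput (60%, against 35.4%), 31 in corpus (62%, against 32.2%) and 28 in cauda (56%, against 40.4%). In corpus, for example, Gbp2 had 13.6 CPM in replicate 2 and 3.01 in replicate 3, and Rsad2 had 4.81 and 1.32. The members thus varied together between libraries of 1 segment, and counts of members are not counts of independent observations.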

How the data were processed

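Stranded mRNA libraries were made with a KAPA kit and sequenced on an Illumina GAIIx as single 36-base reads, per the labels' protocols. Build mm10 and the tools Bowtie2 2.2.0, FastQC 0.11.2 and CASAVA 1.8.2 are listed in the submitters' processing notes. What counted the reads, with which annotation and strand setting, is not given in the sources used here. Per the file headers, the deposited table holds raw counts and RPKM for every symbol and library. Counts were tested as deposited and RPKM values only ordered genes within a segment.

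Genes passing filterByExpr (14168) were scaled by TMM and fitted with edgeR 4.0.16 (limma 3.58.1, R 4.3.3) as 1 mean per segment over all 9 libraries, with quasi-likelihood tests and Benjamini-Hochberg adjustment at 0.05. These genes held at least 99.78% of each library's counts, the biological coefficient of variation was 10.1%, and totals of 2600061 to 6076479 counts limit precision for scarce members. The fit was tested on simulated counts with known changes. Shared sequence was measured as 36-base windows of GENCODE M21 transcripts found in other genes. Promoters came from RefSeq (GRCm38.p6).

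Alternatives were DESeq2 1.42.0, other scalings and filters, a replicate block and leaving out each library. Members and gene lists were chosen with earlier results of these data known. Apart from 2 tested members that are counted but not reported by name here, every member was named: called ones with their values, other tested ones with their range, untested ones with their counts; from each pathway list up to 4 genes with the smallest F-test p were named, plus Ifnar1, Ifnar2, Jak1 and Tyk2, which that rule left out.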

Additional observations from a re-analysis of the deposited data

How the results depend on the processing

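Across 17 alternative settings, no called member difference changed direction. Members called ranged from 14 to 20 in corpus against caput, 23 to 30 in cauda against corpus and 22 to 30 in cauda against caput. All genes called ranged from 7282 to 8576, 4574 to 5946 and 6830 to 8178 in the same order. The main fit called 8173, 5552 and 7745 genes, so the calls of all genes moved with the setting too. Of the member differences called, 13 of 15, 20 of 26 and 21 of 26 held in every setting. DESeq2 called 15, 23 and 24 and lost Gbp6 and Oas1c in the first comparison, Ifitm2, Irf2bp1, Oas1a and Oas1g in the second and Ifi44 and Mx1 in the third. Fitting only the segments compared lost Oas1c and Ifitm2, and upper quartile scaling Irf2bp1, in those same comparisons. Pathway genes called in cauda against caput ranged from 28 to 43 when a library was left out, against 43 with all. The count was 28 without caput replicate 3, 30 without cauda replicate 1 and 41 without caput replicate 1. All genes called in that comparison then ranged from 6909 to 7922, against 7745 with all. What lowered the pathway count was not tested. The replicate numbers were tested as a block: 20, 28 and 30 members were called with the replicate block, against 15, 26 and 26 without. The block added Gbp4, Ifitm1, Irf2bp1, Irf2bpl and Rsad2 in corpus against caput, Cmpk2 and Gbp3 in cauda against corpus, and Cmpk2, Ifitm3 and Rsad2 among those in cauda against caput, and lost none. Deviations of same-numbered libraries correlated at 0.08 to 0.18 for replicate 1, -0.05 to 0.17 for replicate 2 and 0.19 to 0.27 for replicate 3, and 6 of 9 libraries correlated best with their own number, a hint from the data, but the labels give no pairing and the correlation did not pass 0.1 in every pair, so the fit without the block was kept. Low depth limits the scarcest members, since 1 count was worth up to 0.374 CPM. Short single-end reads leave paralogs such as Oas1a and Oas1g uncertain, and where the counting ignored strand, reads of overlapping opposite-strand genes would be mixed.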
